A study of Mus musculus with 24 samples.

Results

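Adipokine genes encode the hormones and other signalling proteins that fat tissue releases into the blood, and 6 of them were followed here through the visceral adipose tissue of 24 mice: Adipoq, Lep, Cfd, Retn, Rbp4 and Nampt. They were chosen by symbol as well-known adipokines, from the 54232 genes in the count table, and all 6 were found and had enough reads to be tested. The C57BL6 mice, 10 weeks old per the series design, fell into 4 groups of 6 libraries. Control mice had a sham operation and a lentivirus that expresses green fluorescent protein (GFP), NaKtide mice had the sham operation and a virus for GFP linked to NaKtide (a peptide made to interrupt oxidant signalling through the Na,K-ATPase), PNx mice had a partial nephrectomy and the GFP virus, and PNx + NaKtide mice had the nephrectomy and the NaKtide virus. Every mouse therefore carried a GFP-expressing lentivirus, given into the peritoneal cavity and driven by the adiponectin promoter, which is the promoter of Adipoq itself. No library came from a mouse without virus.

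Adipoq encodes adiponectin, a hormone made by adipocytes that acts through the receptors Adipor1 and Adipor2 and also binds T-cadherin (Cdh13). Leptin (Lep) signals the size of the fat stores to the brain, adipsin (Cfd, complement factor D) is the protease that cleaves factor B in the alternative complement pathway, and in mice resistin (Retn) is also largely a product of adipocytes. Rbp4 carries retinol in the blood and is made by liver as well as by fat. Nampt catalyses the rate-limiting step by which NAD is rebuilt from nicotinamide, is found in most cell types, and is also released into the circulation.

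On GRCm38, Adipoq lies on chromosome 16 at 23146536 to 23158028 and Cfd on chromosome 10 at 79890853 to 79892655. Lep lies on chromosome 6 at 29060220 to 29073877 and Retn on chromosome 8 at 3655770 to 3660110. Nampt lies on chromosome 12 at 32819545 to 32853349, and these 5 genes are on the plus strand. Rbp4 is on the minus strand of chromosome 19 at 38116629 to 38125281. None of the 6 shares exon bases with an annotated gene of the opposite strand, which sets them apart from much of this table, where 79.9% of all reads fell in genes that do. Whether the counting step used strand is not stated in the sources used here.

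The starts of Adipoq, Cfd, Lep and Retn are shown because Adipoq's level departed from that of the other 3 in the libraries described below. Each line gives the 250 bases before the RefSeq start on the plus strand of GRCm38.p6 (Adipoq chr16:23146286-23146535, Cfd chr10:79890603-79890852, Lep chr6:29059971-29060220, Retn chr8:3655520-3655769). Capitals mark matches on either strand to any of 5 motifs. They are the C/EBP site, spelled TTNNGCAA, the nuclear receptor half-site, spelled AGGTCA, the CCAAT box, the GC box, spelled GGGCGG, and the TATA box, spelled TATAAA.
Adipoq: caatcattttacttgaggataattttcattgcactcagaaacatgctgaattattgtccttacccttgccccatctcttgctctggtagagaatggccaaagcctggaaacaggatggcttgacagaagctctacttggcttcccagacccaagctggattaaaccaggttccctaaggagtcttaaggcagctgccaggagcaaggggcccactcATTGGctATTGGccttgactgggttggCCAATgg
Cfd: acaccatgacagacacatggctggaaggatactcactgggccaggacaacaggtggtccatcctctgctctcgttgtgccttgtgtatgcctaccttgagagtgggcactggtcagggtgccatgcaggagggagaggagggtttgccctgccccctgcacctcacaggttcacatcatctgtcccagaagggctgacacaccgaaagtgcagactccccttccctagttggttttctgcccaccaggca
Lep: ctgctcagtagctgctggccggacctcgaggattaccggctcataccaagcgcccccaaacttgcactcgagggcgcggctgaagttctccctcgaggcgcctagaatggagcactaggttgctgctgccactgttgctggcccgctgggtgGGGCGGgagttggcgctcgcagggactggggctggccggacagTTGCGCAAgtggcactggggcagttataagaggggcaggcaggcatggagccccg
Retn: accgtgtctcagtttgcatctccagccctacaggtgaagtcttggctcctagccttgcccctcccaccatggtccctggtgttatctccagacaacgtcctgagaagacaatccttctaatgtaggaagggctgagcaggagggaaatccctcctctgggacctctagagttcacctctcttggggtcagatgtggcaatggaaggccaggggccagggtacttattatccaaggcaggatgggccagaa
Adipoq held 3 CCAAT matches, all within 34 bases of the start, and none of the other 4 motifs. Lep held a C/EBP match, which is palindromic and so counts on both strands, and a GC box. Cfd and Retn held none of the 5. Rbp4 has a pair of windows in the table, which together held every motif but the half-site, and Nampt held GC boxes and a half-site. Of all 32851 windows of this length in the table, 9.56% held the C/EBP letters, 14.0% the half-site, 33.8% the CCAAT box, 32.7% the GC box and 12.4% the TATA box. No match overlapped another motif's match in the 4 sequences printed. A match describes letters only, and no binding was measured.

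The libraries held 679250 to 2979505 reads in genes, and 3 reads, the most that a count of 0 allows, stood for 0.737 to 5.90 CPM (counts per library size, with TMM scaling, the default of edgeR). These limits cover counting error only. Against the label of adipose tissue, 24 adipocyte markers (among them Plin1, Fabp4, Lpl and Pparg, and none of the 6 adipokines) summed to a median of only 591 CPM, while 15 epididymis markers summed to a median of 1901 CPM and 16 testis germ cell markers to 593 CPM. Pparg had no read in 6 of the 24 libraries. Some adipocyte markers share exon bases with opposite-strand genes, among them Acsl1 (1039), Lipe (918), Adrb3 (839) and Gpd1 (384). The adipocyte sums are uncertain for that reason. Of the libraries, 5 stood apart. PNx replicate 6 and NaKtide replicate 6 had adipocyte sums of 9422 and 7775 CPM, against 241 to 1679 CPM in the rest, with epididymis sums of 146 and 35.6 CPM, and NaKtide replicate 6 also had 6008 CPM of 11 skeletal muscle markers, against at most 43.4 CPM elsewhere. PNx replicates 1, 2 and 3 had adipocyte sums of 364, 294 and 395 CPM, epididymis sums of 28.1, 313 and 808 CPM, and the highest testis germ cell sums (1207, 1162 and 1372 CPM, against at most 1036 CPM in the other 21). Results are therefore given with and without these libraries. No pair of libraries agreed within counting noise, but some came close. The chi-squared per degree of freedom was 1.57 for Control replicates 5 and 6 and 1.93 for PNx + NaKtide replicates 2 and 3. The labels say only that the libraries are separate samples, so p-values measure the spread between samples.

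Per unit of length, Cfd was the most abundant of the 6 and Adipoq the second. The median over the 24 libraries was 72.0 FPKM for Cfd, 20.1 FPKM for Adipoq, 3.08 FPKM for Retn, 1.68 FPKM for Rbp4, 1.64 FPKM for Lep and 1.13 FPKM for Nampt (FPKM being fragments scaled by transcript length and library size). Cfd was above Adipoq in 21 of 24 libraries, and the exceptions were PNx replicates 1, 2 and 3. Adipoq was above Retn in 23 libraries and above Lep, Rbp4 and Nampt in all 24. The lower 3 had no fixed order, since Rbp4 was above Lep in 14 libraries and below it in 10, and Lep was above Nampt in 15 and below it in 9. Among protein-coding genes ranked by FPKM within a library, the median place was 403.5 for Cfd, with the best place 7, and 1206.5 for Adipoq, with the best place 67. The median place was 4036 for Retn, 5848 for Lep, 7521 for Nampt and 7637.5 for Rbp4.

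Adipoq was read 3038 times in all and in every library. In Control its lowest, median and highest levels were 6.42, 33.8 and 56.2 CPM, and in NaKtide they were 13.3, 25.4 and 166 CPM. In PNx the 6 libraries read 95.1, 141, 88.6, 5.50, 13.1 and 345 CPM in order of replicate number, and in PNx + NaKtide the lowest, median and highest were 2.50, 33.1 and 49.0 CPM. Replicates 1, 2, 3 and 6 of PNx were thus above every Control library, while replicate 4 was below every Control library, so the groups overlapped. The means were 31.0 ± 19.4 (SD, n = 6) in Control, 46.8 ± 58.4 in NaKtide, 115 ± 124 in PNx and 28.3 ± 18.4 in PNx + NaKtide. Several libraries with little Adipoq had low testis germ cell sums. Control replicates 3 and 4 had sums of 164 and 176 CPM, with Adipoq at 10.7 and 6.42 CPM. PNx + NaKtide replicates 5 and 6 had 114 and 122 CPM, with 2.50 and 10.2 CPM. In PNx replicates 4 and 5 the sums were 210 and 209 CPM. PNx + NaKtide replicate 1 (134 CPM, Adipoq 42.1 CPM) and NaKtide replicate 3 (765 CPM, 23.0 CPM) went the other way. The part of tissue mixture in Adipoq was not tested. In bulk tissue, fewer cells of a type and less RNA per cell cannot be told apart.

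Cfd, with 6169 reads, went the opposite way to Adipoq in 3 of the PNx libraries. Control libraries ran from 55.6 to 196 CPM with a median of 112 CPM, NaKtide from 40.5 to 489 CPM with a median of 79.9 CPM, and PNx + NaKtide from 23.3 to 223 CPM with a median of 66.2 CPM. The PNx libraries read 14.0, 3.23, 14.9, 59.7, 107 and 943 CPM by replicate number. Replicates 1, 2 and 3 were below every library of the other 3 groups, and replicate 6 was above every other library of the series. The group mean of PNx, 190 ± 371 CPM, was therefore the highest of the 4 groups (Control 113 ± 53.4 CPM, NaKtide 148 ± 172 CPM, PNx + NaKtide 89.5 ± 71.4 CPM), while its median, 37.3 CPM, was the lowest.

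In the PNx libraries Retn and Lep were ordered much like Cfd, at lower depth. Retn (914 reads) read 0.493, 0, 0.505, 4.71, 9.50 and 204 CPM in the PNx libraries by replicate number, against 4.14 to 16.7 CPM in Control, 2.42 to 78.2 CPM in NaKtide and 2.14 to 26.0 CPM in PNx + NaKtide. The mean of Retn was 9.30 ± 4.84 CPM in Control, 19.6 ± 29.3 CPM in NaKtide, 36.6 ± 82.2 CPM in PNx and 8.12 ± 9.57 CPM in PNx + NaKtide. Lep (706 reads) read 0.493, 0, 1.01, 4.71, 5.94 and 128 CPM in the PNx libraries, against 5.25 to 10.5 CPM in Control and 2.70 to 105 CPM in NaKtide. Its mean was 7.72 ± 2.18 CPM in Control, 30.0 ± 37.9 CPM in NaKtide, 23.4 ± 51.4 CPM in PNx and 2.97 ± 3.13 CPM in PNx + NaKtide. In PNx replicates 1, 2 and 3 both genes had at most 4 reads, near the limit of detection. Lep differed from Cfd in the NaKtide libraries, where 4 of 6 were above the highest Control library. In PNx + NaKtide, 4 of 6 libraries were below every Control and every NaKtide library for Lep, unlike for Cfd and Retn. They read 0.714 to 1.67 CPM, with 7.75 and 6.11 CPM in the other 2. Those 4 libraries (replicates 2 to 5) had 1 to 3 Lep reads each, near the limit of detection. For Retn, 4 of 6 PNx + NaKtide libraries were also below every Control library, but only 1 was below every NaKtide library.

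Rbp4 and Nampt were the least read. Rbp4 (308 reads) had a median of 2.92 CPM in Control, 2.37 CPM in NaKtide, 1.55 CPM in PNx and 1.39 CPM in PNx + NaKtide, and had no read in 3 libraries. PNx replicate 6 had its highest level, 57.0 CPM, followed by NaKtide replicate 6 with 44.0 CPM. In both the sum of 10 liver markers was high (503 and 326 CPM, against at most 71.4 CPM elsewhere). Most reads of that list came from Cyp2e1 (1913 over the 24 libraries) and Serpina1a (634), and only 75 from Alb. Both libraries were also the richest in adipocyte markers (9422 and 7775 CPM). The part of liver RNA in the Rbp4 reads was not tested. The group means were 2.77 ± 2.19, 9.23 ± 17.1, 10.8 ± 22.6 and 2.35 ± 2.80 CPM in Control, NaKtide, PNx and PNx + NaKtide. Nampt (320 reads) had the narrowest range of the 6, from 0 to 21.9 CPM, with a mean of 6.37 ± 1.95 CPM in Control, 4.43 ± 3.22 CPM in NaKtide, 9.85 ± 6.35 CPM in PNx and 4.68 ± 2.12 CPM in PNx + NaKtide. Its levels in PNx replicates 1, 2 and 3, at 7.64, 9.69 and 9.08 CPM, lay close to the 8.36 CPM of the highest Control library, and the 21.9 CPM belonged to PNx replicate 6. For all 6 genes, groups next to each other in the order of their means differed by less than the SD of the higher of the pair, except that Lep in Control was above Lep in PNx + NaKtide by more than either SD.

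**Figure D1:**
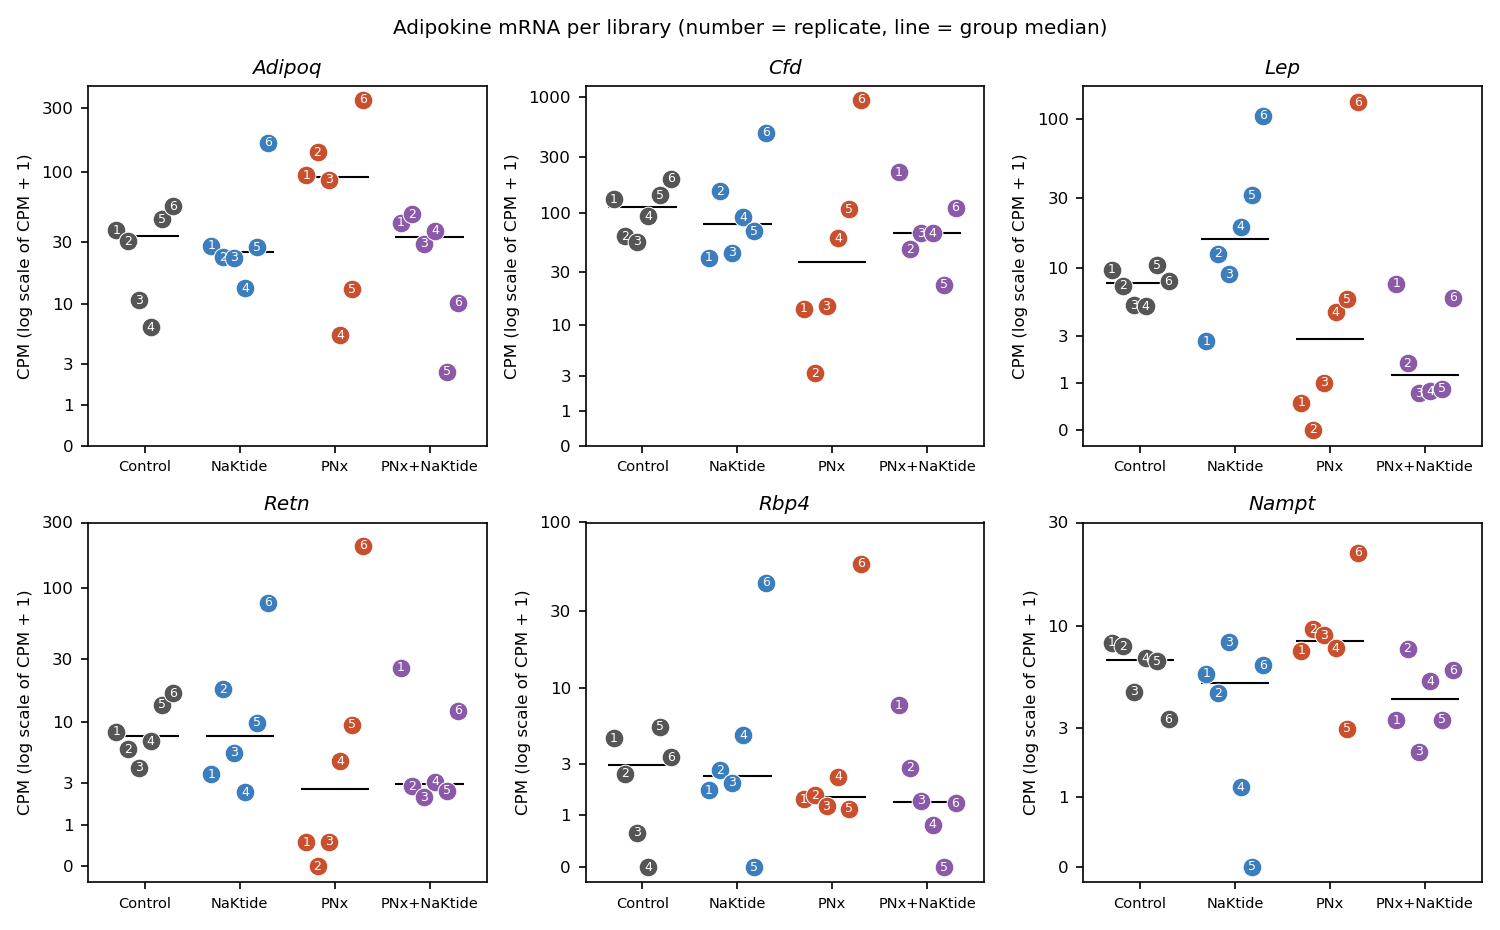
Level of each adipokine gene in the 24 libraries in TMM-scaled CPM, drawn on a log scale of CPM + 1; each point is a library with its replicate number and each line a group median. PNx replicates 1, 2 and 3 lie high for Adipoq (88.6 to 141 CPM) and at the bottom for Cfd (3.23 to 14.9 CPM) and Retn. They are also low for Lep, where PNx + NaKtide replicates 3, 4 and 5 (0.714 to 0.832 CPM) lie below PNx replicate 3 (1.01 CPM). PNx replicate 6 and NaKtide replicate 6 are the highest pair for every gene but Nampt.

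Counts within a library show the departure of Adipoq without any scaling between libraries. PNx replicate 1 had 386 Adipoq reads and 57 Cfd reads, PNx replicate 2 had 349 and 8, and PNx replicate 3 had 351 and 59, which gave Adipoq-to-Cfd ratios of 6.77, 43.6 and 5.95. In the other 21 libraries the ratio ran from 0.0688 (Control replicate 4) to 1.02 (PNx + NaKtide replicate 2), with a median of 0.287, and was below 1 in 20. PNx replicate 6, with 913 and 2498 reads, had a ratio of 0.365, and NaKtide replicate 6 had 0.338, so the libraries richest in adipocyte markers held the pair in the usual proportion. This quantity was chosen after the data were seen, and the 3 libraries were not tested as a group.

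**Figure D2:**
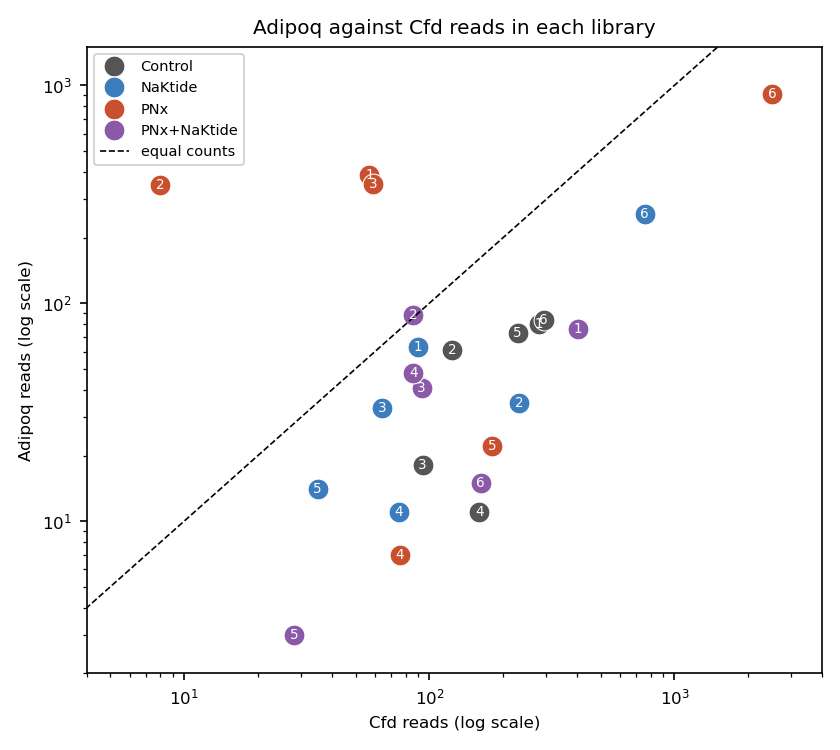
Adipoq reads against Cfd reads in each library, on log axes, with colours for the 4 groups and replicate numbers in the points; the dashed line marks equal counts. PNx replicates 1, 2 and 3 lie far above the line, PNx + NaKtide replicate 2 lies just above it at a ratio of 1.02, and the other 20 libraries lie below it.

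Expressed as a percent of the adipocyte marker sum, Adipoq stood at 26.2, 48.0 and 22.4% in PNx replicates 1, 2 and 3 and at 1.03 to 11.4% in the other 21 libraries. Cfd stood at 3.89, 1.10 and 3.77% in those 3 libraries and at 6.02 to 18.2% in the others. The 3 libraries were the highest for Adipoq and the lowest for Cfd on this scale. For Retn they were also the lowest, at 0.136, 0 and 0.128%, against 0.385 to 2.17% elsewhere. Against Fabp4, the fatty acid carrier of fat cells, the order was the same. Adipoq CPM was 309, 513 and 276% of that of Fabp4 in PNx replicates 1, 2 and 3, and at most 84.6% in any other library. It was also above every other library in all 3 when set against Plin1, Plin4, Lpl or Car3 (markers added after the data were seen). Against Plin1 it stood at 4825, 17450 and 11700% in the 3 libraries and at most 629% elsewhere. Single markers such as Plin1 were thus far lower there, relative to Adipoq, than the marker sum was. PNx replicate 6 and NaKtide replicate 6, the highest for most adipokines in CPM, were within the range of the others here, with Adipoq at 3.66 and 2.13% and Cfd at 10.0 and 6.29%. Leptin relative to the markers stood at 0.150 to 0.783% in PNx + NaKtide, against 0.746 to 1.36% in Control and 0.572 to 3.08% in NaKtide. Replicates 2 to 5 of PNx + NaKtide had 1 to 3 Lep reads each, near the limit of detection. PNx ran from 0 to 1.36%.

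**Figure D3:**
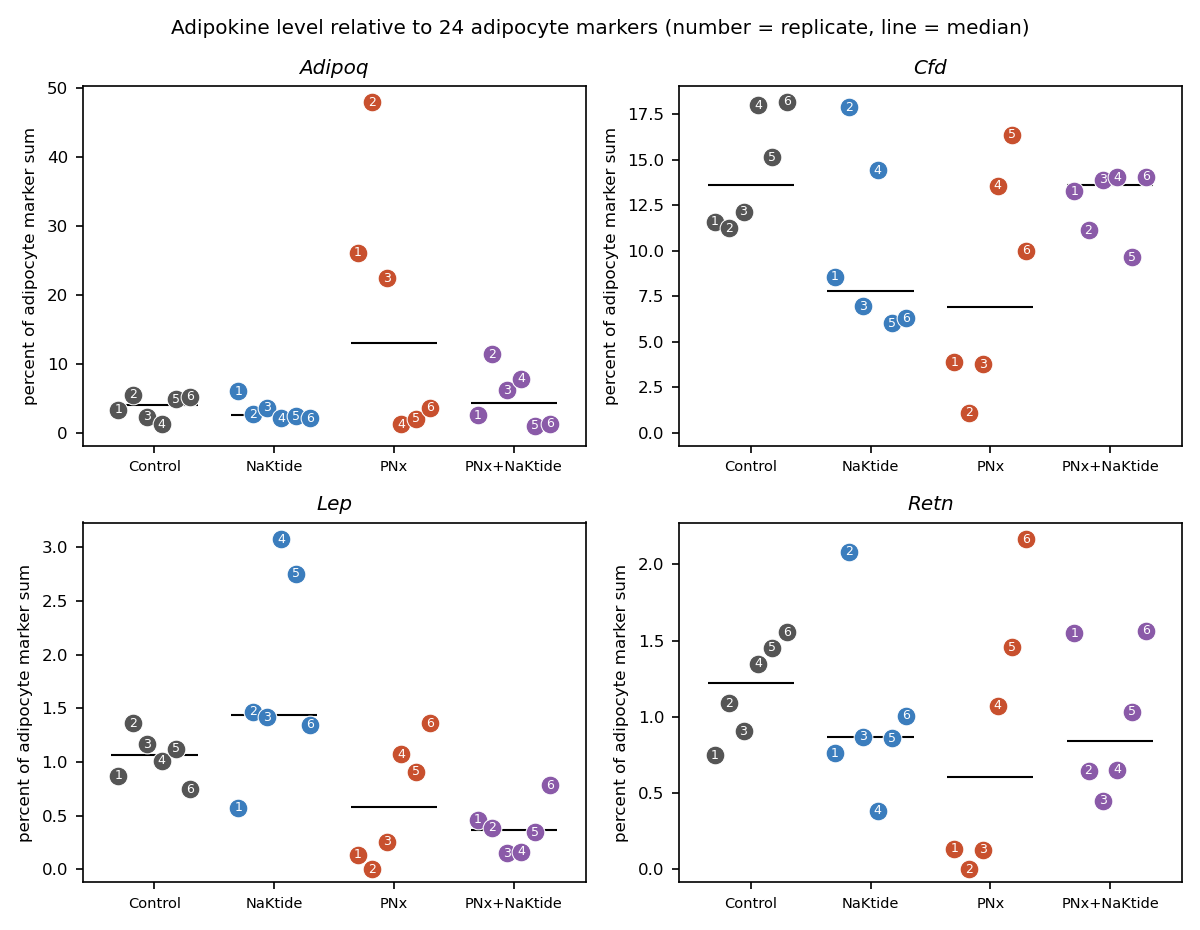
Adipoq, Cfd, Lep and Retn in each library as a percent of the summed CPM of 24 adipocyte markers, by group; numbers are replicates and lines are medians. Adipoq reaches 22.4 to 48.0% in PNx replicates 1, 2 and 3 and stays at or below 11.4% elsewhere, and Cfd falls to 1.10 to 3.89% in the same libraries.

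The comparison of PNx with Control asks what partial nephrectomy did to these transcripts. All 6 fold changes were positive, and none passed a BH-adjusted p-value of 0.1 by edgeR (0 of 6, where 0.0766% of all 26116 genes tested passed). Adipoq was 1.89 ± 0.79 higher on the log2 scale (± SE, unadjusted p-value = 0.0251, BH-adjusted p-value = 0.159), with 4 of 6 PNx libraries above the highest Control library. It was the only member with an unadjusted p-value under 0.05, where 25.4% of all genes had such a p-value. The estimates were 1.98 ± 1.19 for Retn, 1.95 ± 1.10 for Rbp4, 1.60 ± 1.07 for Lep, 0.75 ± 0.91 for Cfd and 0.63 ± 0.50 for Nampt, with BH-adjusted p-values of 0.246 to 0.596. The median over the 6 was 1.74, against 0.36 over all genes, and no member had groups that did not overlap (0.486% of all genes did).

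PNx replicate 6 set the sign for 4 of the 6 genes. Without it the difference was -1.82 ± 0.85 for Lep, -1.75 ± 0.98 for Retn, -1.52 ± 0.74 for Cfd and -0.83 ± 0.93 for Rbp4, while Adipoq stayed positive at 1.15 ± 0.76 and Nampt at 0.22 ± 0.47, again with 0 of 6 called (14.8% of all genes were). Without that library and NaKtide replicate 6 together, edgeR called Lep, as lower in PNx (-1.83, 1 of 6, with 21.8% of all genes called). Leaving out PNx replicates 1, 2 and 3 together gave 1.84 ± 0.98 for Adipoq, 2.83 ± 1.05 for Retn, 2.44 ± 0.93 for Lep and 1.58 ± 0.81 for Cfd, with the signs found in all libraries and 0 of 6 called (0% of all genes were). The call for Adipoq depended on the settings: its BH-adjusted p-value was 0.0514 with the size factors of DESeq2 and 0.0499 without PNx replicate 4, but 33.3% and 33.2% of all genes were called under those settings. Adipoq was also the only member called with scaling by library size (15.7% of all genes called), with the stricter filter filterByExpr (17.9%) and without PNx replicate 5 (23.2%). DESeq2 called 2 of 6, Adipoq and Nampt (both higher in PNx), where it called 30.1% of all genes, and limma voom with sample weights called 4 of 6, with Adipoq higher and Lep, Cfd and Retn lower in PNx, where it called 63.8%. With those size factors the median over all genes was 0.76 in place of 0.36, and the estimates were 2.36 ± 0.82 for Adipoq and 1.05 ± 0.49 for Nampt. The direction of Adipoq was positive under every alternative run in this comparison.

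**Figure D4:**
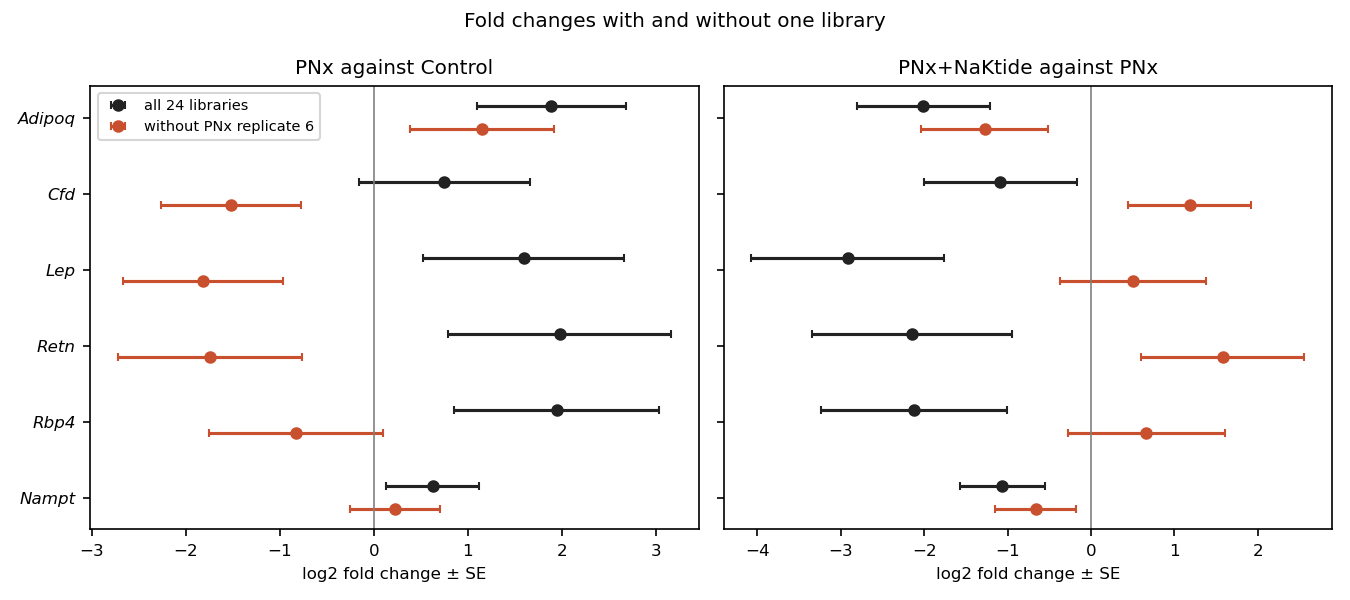
Log2 fold changes with SE from edgeR for the 6 genes, PNx against Control on the left and PNx + NaKtide against PNx on the right, with all 24 libraries (black) and without PNx replicate 6 (red). Lep, Cfd, Retn and Rbp4 change sign in both comparisons when that library is left out, and Adipoq and Nampt keep theirs.

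What the peptide did after nephrectomy is addressed by PNx + NaKtide against PNx. It shares the 6 PNx libraries with the comparison above. All 6 estimates were negative: -2.92 ± 1.16 for Lep (unadjusted p-value = 0.0187), -2.01 ± 0.80 for Adipoq (0.0182), -1.06 ± 0.51 for Nampt (0.0457), and -2.14 ± 1.20, -2.12 ± 1.12 and -1.09 ± 0.91 for Retn, Rbp4 and Cfd. None was called by edgeR, as for all genes (0 of 6 and 0%), with BH-adjusted p-values of 0.357 to 0.537. An unadjusted p-value under 0.05 was found for 3 of the 6 and for 12.7% of all genes. DESeq2 called Lep, Adipoq and Nampt, all lower (3 of 6, and 5.88% of all genes), and voom called Adipoq and Nampt as lower and Cfd and Retn as higher (4 of 6, and 44% of all genes). Without PNx replicate 6 the estimates were 1.58 ± 0.98 for Retn, 1.18 ± 0.74 for Cfd, 0.66 ± 0.94 for Rbp4 and 0.50 ± 0.87 for Lep, against -1.28 ± 0.76 for Adipoq and -0.66 ± 0.49 for Nampt. The highest PNx + NaKtide library had 49.0 CPM of Adipoq, below PNx replicates 1, 2, 3 and 6 and above replicates 4 and 5.

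In sham mice, NaKtide against Control gave 1.95 ± 1.09 for Lep, 1.76 ± 1.11 for Rbp4, 1.10 ± 1.18 for Retn, 0.60 ± 0.78 for Adipoq, 0.39 ± 0.91 for Cfd and -0.42 ± 0.52 for Nampt. No gene was called (0 of 6 and 0% of all), none of the 6 had an unadjusted p-value under 0.05 (3.95% of all did), and neither DESeq2 nor voom called a member (0.0116% and 0.00766% of all genes). Without NaKtide replicate 6, Lep stayed positive at 0.89, and Adipoq, Cfd, Retn and Rbp4 became negative. For Lep, 4 of 6 NaKtide libraries were above the highest Control library.

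Between the nephrectomised and sham mice that both received NaKtide, Lep gave the largest estimate of the 6, at -3.27 ± 1.17 (unadjusted p-value = 0.0103, BH-adjusted p-value = 1), with 4 of 6 PNx + NaKtide libraries below the lowest NaKtide library. Those 4 libraries held only 1 to 3 Lep reads each, and the Lep estimate remained at -2.20 without NaKtide replicate 6. The others lay between -1.93 ± 1.13 (Rbp4) and -0.02 ± 0.50 (Nampt), and all 5 turned positive without that library, at 0.30 for Adipoq, 0.17 for Cfd, 0.072 for Retn, 0.069 for Rbp4 and 0.091 for Nampt. None of the 6 was called (0% of all genes), 1 had an unadjusted p-value under 0.05 (4.09% of all genes), and DESeq2 and voom called none of the 6 (0.00776% and 0% of all). Against Control, PNx + NaKtide differed by -1.32 ± 1.14 for Lep and by -0.44 to -0.12 for the other 5. There, 0 of 6 were called by edgeR (0% of all), 0 of 6 had an unadjusted p-value under 0.05 (3.61% of all), and 0 of 6 were called by DESeq2 and by voom (0.128% and 1.2% of all).

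The interaction term, which tests whether nephrectomy acted differently under NaKtide than under GFP, was negative for all 6. It was -4.86 ± 1.59 for Lep (unadjusted p-value = 0.00529, BH-adjusted p-value = 0.475), -3.88 ± 1.57 for Rbp4 (0.0209 unadjusted) and -2.62 ± 1.11 for Adipoq (0.0262 unadjusted). Retn, Cfd and Nampt gave -3.24 ± 1.67, -1.48 ± 1.29 and -0.64 ± 0.72. None was called (0% of all genes). An unadjusted p-value under 0.05 was found for 3 of 6 and for 9.27% of all genes. DESeq2 called Lep (1 of 6, and 0.365% of all genes, BH-adjusted p-value = 0.0917), while voom called Retn and Cfd with the opposite sign (2 of 6, and 25.5% of all genes). The Lep term rested in part on PNx + NaKtide replicates 2 to 5, with 1 to 3 reads each. Several terms rested on single libraries. Without PNx replicate 6 the term was -1.44 for Lep, -1.10 for Rbp4, -1.88 for Adipoq and -0.25 for Nampt, and it turned positive for Cfd (0.79) and Retn (0.48). Without NaKtide replicate 6 it was -3.80 for Lep, -1.88 for Rbp4, -1.59 for Adipoq, -1.91 for Retn and -0.58 for Cfd.

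Across libraries the 6 genes did not behave as a single set. Over the 24 libraries, which differ in depth and share the tissue mixtures given above, Spearman's rho was 0.89 between Cfd and Retn, 0.79 between Lep and Retn and 0.76 between Lep and Cfd. Adipoq had a rho of 0.14 with Cfd, 0.08 with Retn and 0.07 with Lep, and of 0.54 with Rbp4. With the sum of the adipocyte markers, rho was 0.90 for Cfd, 0.89 for Retn, 0.88 for Lep, 0.55 for Rbp4, 0.21 for Adipoq and -0.18 for Nampt. Over the 19 libraries without the 5 that stood apart, these values were 0.81, 0.81, 0.78, 0.43, 0.40 and -0.19, and Adipoq remained the fifth of the 6. Marker by marker, 18 of 24 adipocyte markers had a rho over 0.5 with Cfd and with Retn, 15 with Lep, 14 with Rbp4, 6 with Adipoq and 1 with Nampt. The highest for Adipoq was Lipe, the hormone-sensitive lipase that testis also expresses, at 0.88, although 918 exon bases of Lipe overlap an opposite-strand gene.

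**Figure D5:**
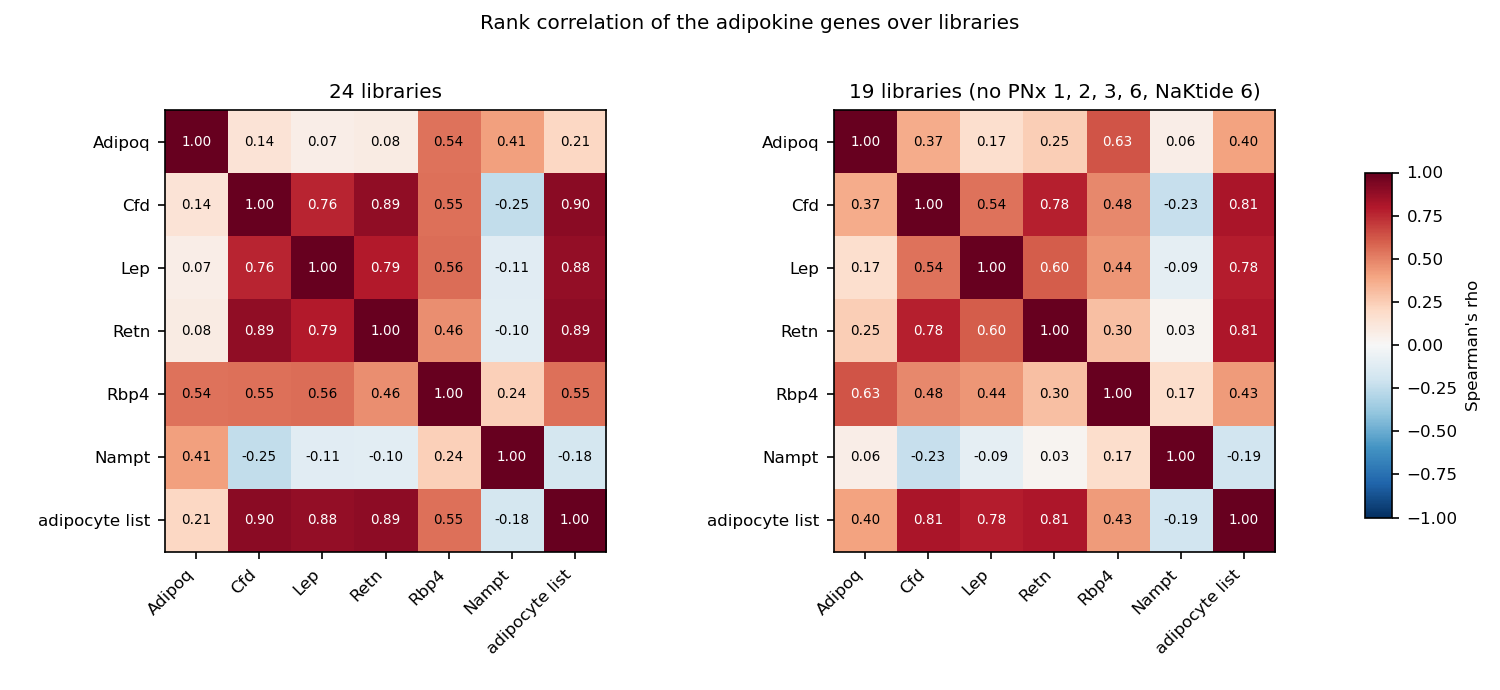
Spearman's rho between the 6 adipokine genes and the summed adipocyte markers over all 24 libraries (left) and over 19 libraries without PNx replicates 1, 2, 3 and 6 and NaKtide replicate 6 (right), coloured from -1 to 1. Cfd, Lep and Retn form a block with the marker sum (0.76 to 0.90 on the left), and Adipoq has 0.07 to 0.14 with the 3 genes there.

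Among 8379 protein-coding genes of at least 5 CPM on average, the nearest to Cfd were Lpl, Car3 and Plin1 (rho of 0.94, 0.92 and 0.92), that is, lipoprotein lipase, a carbonic anhydrase abundant in fat and the coat protein of the lipid droplet. The nearest to Retn were Mgll, which splits monoglycerides, Gsn, which severs actin filaments, and Mydgf (0.93, 0.92 and 0.91). Those nearest to Lep were Podn, Hdgfl2 and the transcription factor Nfia (0.94, 0.91 and 0.90). For Adipoq they were the galectin Lgals1, Trp53inp2 and the phosphatase Ptp4a3 (0.91, 0.90 and 0.89), and no adipocyte marker was among these 3. For Rbp4 and Nampt the nearest genes reached lower values, 0.81, 0.79 and 0.75 with Dlc1, Dync1li1 and Prkar2b, and 0.78, 0.74 and 0.71 with Zzz3, Il16 and Tln2. Mgll, Hdgfl2, Nfia, Zzz3 and Il16 overlap opposite-strand exons, by 4 to 1368 bases, and their counts are uncertain for that reason.

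Genes around the 6 adipokines were taken from 9 lists of 79 genes, of which 78 were in the table and 70 could be tested. None was called in any of the 6 comparisons by edgeR. DESeq2 called 15 of the 70 as higher and 2 as lower in PNx against Control, with no adjusted p-value for 10 of them, and voom called 16 as higher and 21 as lower, against the 30.1% and 63.8% of all genes given above. In PNx + NaKtide against PNx DESeq2 called 1 as higher (Prkaa2) and 3 as lower (Agt, Nmnat3 and Parp1, all 4 named after their values were seen), with no adjusted p-value for 32 of the 70. There, voom called 17 as higher and 8 as lower, and the shares of all genes were 5.88% and 44%. In the interaction DESeq2 called 1 (Aldh1a2, which makes retinoic acid, also named after its values were seen), with no adjusted p-value for 27 of the 70. For that term voom called 10 as higher and 5 as lower, and the shares of all genes were 0.365% and 25.5%. Neither called any in the other 3 comparisons. In PNx against Control, 12 had an unadjusted p-value under 0.05 and were higher (18.5% of all genes were) and 2 were lower (6.88% of all genes were). The 2 lower ones, named after their values were seen, were Fgf21, a hormone of liver and fat, at -2.60 ± 0.87, and Prkaa2, a catalytic subunit of the AMP-activated kinase, at -1.44 ± 0.47. Both had few reads (94 and 122 over the 24 libraries), and their PNx means of 0.641 and 1.23 CPM were near the limit of detection. The median log2 fold change was 2.68 for the resistin family (1 gene tested, Retnla), 1.37 for adipokine receptors and binding partners (7 genes), 1.19 for the alternative complement pathway (7), 0.94 for the adiponectin relatives with a C1q/TNF domain (8) and 0.92 for NAD synthesis and use (11). It was 0.38 for retinol transport and use (12), 0.10 for adiponectin assembly and signalling (7), -0.10 for other secreted adipokines (11) and -0.24 for leptin signalling (6), against 0.36 over all genes. In PNx + NaKtide against PNx, 3 of the 70 were higher (4.07% of all genes were) and 10 lower (8.6% of all were) at an unadjusted p-value under 0.05. The higher ones included Prkaa2 (1.91 ± 0.47) and Fgf21 (2.26 ± 0.88), again named after their values were seen and set against PNx levels near the limit of detection. The medians there ran from -3.09 (resistin family) and -1.49 (alternative complement pathway) to 0.11 (other secreted adipokines), against -0.37 over all genes, with -0.88 for NAD synthesis and use, -0.68 for retinol transport and use, -0.59 for receptors and binding partners, -0.30 for leptin signalling, -0.28 for the adiponectin relatives and -0.14 for adiponectin assembly and signalling.

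Cdh13, which encodes the T-cadherin that binds adiponectin, was high in the PNx libraries in which Adipoq was high. It read 30.3, 19.8, 15.6, 0.785, 1.19 and 22.6 CPM in the PNx libraries by replicate number, and Control libraries read 0 to 3.35 CPM. The match was looser with NaKtide: NaKtide replicate 6 had 11.6 CPM of Cdh13 with 166 CPM of Adipoq, PNx + NaKtide replicate 3 had 13.6 CPM with 29.3 CPM, and PNx + NaKtide replicate 1 had 2.21 CPM with 42.1 CPM. Over all 24 libraries of the 4 groups, Spearman's rho between both genes was 0.86. The estimate was 3.02 ± 0.82 in PNx against Control (BH-adjusted p-value = 0.128) and -1.55 ± 0.75 in PNx + NaKtide against PNx (BH-adjusted p-value = 0.393). Nnmt, which methylates nicotinamide and so takes it from the Nampt reaction, was high in a single PNx library, replicate 6 (69.8 CPM, against 0.246 to 1.78 CPM in the other 5 PNx libraries), with an estimate of 2.61 ± 1.16 (BH-adjusted p-value = 0.172). Sirt3, a mitochondrial enzyme that consumes NAD, read 120, 113 and 70.1 CPM in PNx replicates 1, 2 and 3 and 11.0 to 12.8 CPM in the other 3. It was also raised in PNx + NaKtide replicates 2, 3 and 4 (53.5, 42.1 and 57.6 CPM) and in NaKtide replicate 1 (32.9 CPM), with 16.3 to 28.0 CPM in Control. Its estimate in PNx against Control was 1.47 ± 0.60 (BH-adjusted p-value = 0.153), and 760 of its exon bases are shared with Psmd13 and Ric8a on the opposite strand. The testis germ cell sum was 1207, 1162 and 1372 CPM in PNx replicates 1, 2 and 3. It was 210 and 209 CPM in PNx replicates 4 and 5. PNx + NaKtide replicates 2, 3 and 4 had 737, 957 and 1036 CPM, and NaKtide replicate 1 had 617 CPM. PNx replicate 6 (746 CPM) and NaKtide replicate 3 (765 CPM) had high sums with Sirt3 at 12.8 and 21.6 CPM. The part of tissue mixture in the Sirt3 level was not tested.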

How the data were processed

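RNA from visceral adipose tissue of 24 mice was sequenced from stranded mRNA libraries with paired reads. According to the study's methods and the submitters' processing notes, the authors trimmed reads with Trimmomatic 0.38, aligned them to GRCm38 with HISAT2 2.1.0 and counted them per gene with GenomicAlignments; DESeq2 1.20.0 is also named. Raw counts and FPKM values were both deposited per gene by the authors, beside normalized values that were not used here, since the raw counts were at hand. FPKM was used for levels compared between genes and for alternatives. The strand setting and the annotation release are not given in the sources used here. Groups and replicate numbers came from the sample titles. Libraries held 679250 to 2979505 counts, so genes of few reads were measured with low precision.

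Symbols and coordinates were taken from GENCODE M21, which held 54165 of the 54232 identifiers (99.9%); promoter sequences came from RefSeq (GRCm38.p6), where all 6 genes matched. Genes whose counts over the 24 libraries came to more than 10 in all (26116) were tested with edgeR 4.0.16 in R 4.3.3 (TMM, robust dispersions, quasi-likelihood F-test, 1 fit of 4 group means, 6 contrasts), with Benjamini-Hochberg adjustment over all genes and a threshold of 0.1, as in the study. SEs were derived from the fold change and the F statistic. The biological coefficient of variation was 71.4%. The script was tested on simulated counts. Alternatives were other scalings and filters, DESeq2 1.42.0, limma 3.58.1 (voom with sample weights, and FPKM with a pseudocount of 1 or 0.1), only the groups compared, a replicate block, a threshold of 0.05 and leaving out libraries.

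The 6 adipokine genes, the 9 lists around them and the marker lists were chosen with earlier results of these data known. Besides the 6, the rule named, per list, genes called by edgeR or otherwise at most 3 with a mean of at least 5 CPM and an unadjusted p under 0.05 in PNx against Control, and the 3 protein-coding genes of highest rho with each member. List genes outside it (Fgf21, Prkaa2, Agt, Nmnat3, Parp1 and Aldh1a2) were named after their values were seen. Values of some genes on the lists are not reported here.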

Additional observations from a re-analysis of the deposited data

Results flagged for a closer look

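A library was set apart when its gap to the nearest of the other 5 in its group, divided by the group's range, exceeded Dixon's 95% critical value for 6 samples. For normally distributed values chance does this in about 1 group in 20. The CPM values need not be so distributed, and the same libraries recur across genes, so the number found cannot be set against that rate. Over the 24 combinations of gene and group, 11 such values were found, and 10 of them were PNx replicate 6 or NaKtide replicate 6.

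PNx replicate 6 stood apart for Rbp4 (gap of 0.979 of the range, 57.0 CPM against 2.36 CPM in the next library), Lep (0.954, 128 against 5.94 CPM), Retn (0.953, 204 against 9.50 CPM), Cfd (0.890, 943 against 107 CPM) and Nampt (0.645, 21.9 against 9.69 CPM). NaKtide replicate 6 stood apart for Adipoq (0.901, 166 against 28.4 CPM), Rbp4 (0.890, 44.0 against 4.84 CPM), Retn (0.796, 78.2 against 17.9 CPM), Cfd (0.748, 489 against 154 CPM) and Lep (0.718, 105 against 31.5 CPM). The adipocyte marker sum was 9422 CPM in the former and 7775 CPM in the latter, against at most 1679 CPM elsewhere; relative to that sum neither library exceeded the range of the others for Adipoq, Cfd or Lep, and for Retn PNx replicate 6 was the highest at 2.17%, next to 2.08% in NaKtide replicate 2. PNx + NaKtide replicate 1 stood apart for Rbp4 (0.640, 7.75 against 2.79 CPM), with the highest adipocyte sum of its group.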

How the results depend on the processing

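In PNx against Control and in PNx + NaKtide against PNx, Adipoq and Nampt kept their direction under every alternative run, whereas Lep, Cfd, Retn and Rbp4 did not. The number of the 6 genes called in PNx against Control was 0 with edgeR and 1 (Adipoq) with DESeq2 size factors, with scaling by library size and with filterByExpr (which left out Rbp4), 2 with DESeq2, 4 with limma voom and 1 (Lep, lower) without PNx replicate 6 and NaKtide replicate 6, and ran from 0 to 1 when single libraries were left out, with Adipoq called without PNx replicate 4 or 5 (BH-adjusted p-values of 0.0499 and 0.0797). In PNx + NaKtide against PNx, DESeq2 called 3 and voom 4, and for the interaction DESeq2 called 1 and voom 2. In the other 3 comparisons 0 of 6 were called under every alternative run. The cause of these differences was not tested, but the share of all genes called also moved, from 0% (without PNx replicates 1, 2 and 3) to 63.8% (voom) in PNx against Control. Of the 18 genes nearest to the 6 members, 10 remained with DESeq2 size factors and 7 without the 5 libraries that stood apart.

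The following log2 fold changes had the opposite sign to the values in the report. With limma voom and sample weights, PNx against Control gave -3.06 for Lep, -2.87 for Cfd, -3.44 for Retn and -0.090 for Rbp4, PNx + NaKtide against PNx gave 1.09, 2.33, 2.57 and 0.089 for the same genes, NaKtide against Control gave -0.38 for Cfd and -0.14 for Retn, PNx + NaKtide against NaKtide gave 0.050 for Adipoq and 0.054 for Nampt, PNx + NaKtide against Control gave 0.21 for Adipoq, and the interaction gave 0.68 for Lep, 2.70 for Cfd and 2.71 for Retn. Without PNx replicate 6 and NaKtide replicate 6, PNx against Control gave -1.83 for Lep, -1.52 for Cfd, -1.76 for Retn and -0.83 for Rbp4, PNx + NaKtide against PNx gave 0.52, 1.19, 1.60 and 0.67 for the same genes, NaKtide against Control gave -0.42 for Adipoq, -0.51 for Cfd, -0.24 for Retn and -0.24 for Rbp4, PNx + NaKtide against NaKtide gave 0.30 for Adipoq, 0.17 for Cfd, 0.073 for Retn, 0.076 for Rbp4 and 0.072 for Nampt, and the interaction gave 1.69 for Cfd, 1.83 for Retn and 0.91 for Rbp4. With limma on log2(FPKM + 1), PNx against Control gave -0.14 for Lep, -0.88 for Cfd and -0.41 for Retn, and Cfd gave 0.45 in PNx + NaKtide against PNx and 0.42 in the interaction. With log2(FPKM + 0.1), the first of these comparisons gave -0.94 for Lep, -0.93 for Cfd and -1.24 for Retn, the second 0.49 for Cfd and 0.62 for Retn, and the interaction 0.47 for Cfd and 0.35 for Retn. Nampt in PNx + NaKtide against NaKtide, near 0 in the report, was 0.10 with log2(FPKM + 1), 0.49 with log2(FPKM + 0.1), 0.020 with DESeq2 size factors, 0.12 with TMM from genes free of opposite-strand overlap and 0.041 with only the groups compared.

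When each library was left out in turn, values that changed sign ran, in PNx against Control, from -1.82 to 1.86 for Lep, -1.52 to 1.01 for Cfd, -1.75 to 2.24 for Retn and -0.83 to 2.25 for Rbp4. In PNx + NaKtide against PNx they ran from -3.47 to 0.50 for Lep, -1.60 to 1.18 for Cfd, -2.98 to 1.58 for Retn and -2.97 to 0.66 for Rbp4. In NaKtide against Control they ran from -0.42 to 0.86 for Adipoq, -0.51 to 0.62 for Cfd, -0.24 to 1.34 for Retn and -0.24 to 2.06 for Rbp4. In PNx + NaKtide against NaKtide they ran from -1.06 to 0.30 for Adipoq, -1.24 to 0.17 for Cfd, -2.11 to 0.072 for Retn, -2.79 to 0.069 for Rbp4 and -0.21 to 0.23 for Nampt. In PNx + NaKtide against Control they ran from -0.36 to 0.13 for Adipoq, -1.01 to 0.077 for Retn and -1.03 to 0.13 for Rbp4, and for the interaction from -1.99 to 0.79 for Cfd and -4.08 to 0.48 for Retn.

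Replicate numbers are shared between groups, and same-numbered libraries deviated together in some pairs but not in others. Of 36 correlations of their deviations, 19 were over 0.1 (range -0.589 to 0.706), but 0 of 24 libraries correlated best with their own number. With the replicate block 0 of 6 genes were called in every comparison, where 0.00383% of all genes were called in PNx against Control, 0.00766% in the interaction and 0% in the other 4, and PNx against Control gave -0.69 for Lep, -0.62 for Cfd and -0.34 for Retn, Cfd gave 0.41 in PNx + NaKtide against PNx and 0.39 in the interaction, Nampt 0.044 in PNx + NaKtide against NaKtide, and Adipoq 0.21 in PNx + NaKtide against Control.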
